A study of Mus musculus with 12 samples.

Results

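The genes described here encode the hyaluronan-based matrix that surrounds cortical neurons, together with 1 protease that cuts it. They are 9 of the 18820 genes that the array measured with a probe set of their own. They comprise 4 lecticans (Acan, Bcan, Ncan and Vcan), 3 link proteins (Hapln1, Hapln2 and Hapln4), the tenascin Tnr and the protease Adamts4, chosen by name as perineuronal net genes. A gene with several single-gene probe sets would be represented by the one with the highest mean over the 12 samples, but each of the 9 had exactly 1, and none shared a probe set with another gene.

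The tissue was medial prefrontal cortex (anterior cingulate, prelimbic and dorsal infralimbic areas) micro-dissected from mice aged 12 weeks, of a strain that the labels give as C57BL/6N in the strain field and as C57BL/6 elsewhere. The 6 PolyI:C mice were born to mothers injected with poly(I:C), double-stranded RNA made to mimic a viral infection, at 5 mg/kg intravenously on gestation day 17. The 6 control mice were born to mothers given intravenous saline on that day. Both groups had been through behavioral and cognitive tests as adults, and the comparison asks what a late prenatal immune challenge leaves behind in adult cortical expression. Each mouse had its own array, litter and sex are not among the labels used here, and the p-values therefore cover the spread between individual mice, which may include siblings.

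Perineuronal nets are lattices that wrap the cell bodies and proximal dendrites of certain neurons, in cortex above all the fast-spiking interneurons that contain parvalbumin. Their backbone is hyaluronan. Lecticans, which are chondroitin sulphate proteoglycans, bind to it at one end, link proteins lock that attachment, and tenascin-R ties the other ends of the lecticans together. Nets form as cortical circuits mature and are known for limiting plasticity in the adult. ADAMTS4 is a secreted metalloprotease that cleaves lecticans, and in the adult mouse brain its transcript is known mainly from mature oligodendrocytes. In the RefSeq gene table of GRCm38.p6 each lectican gene has a link protein gene as its neighbour, with 0 protein-coding genes between Bcan and Hapln2, between Ncan and Hapln4, between Vcan and Hapln1, and between Acan and Hapln3.

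Array medians lay between 5.15 and 5.21 (log2), and any 2 arrays had r between 0.997 and 0.999 across probe sets, which are not independent replicates. The 7 measured markers of cortical excitatory neurons had a mean of 9.22 to 9.27 in PolyI:C mice and 9.16 to 9.27 in control mice (log2). The 11 markers of parvalbumin interneurons had a mean of 7.28 to 7.34 in PolyI:C mice and 7.29 to 7.37 in control mice. The probe sets of Ncan, Tnr and Bcan were bright, above 96.2%, 92.7% and 86.6% of the 23099 probe sets tested. That of Acan was dim, above 29.4%. Array signals depend on the probes as well as on the transcript, so these ranks describe probe sets and do not order the genes by abundance.

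Of the 9 genes, Adamts4 fell in PolyI:C mice and none rose. The other 8, structural genes of the matrix, did not pass the test (limma with Benjamini-Hochberg adjustment over 23099 probe sets, threshold adjusted p under 0.05). Over all probe sets tested, 2.83% passed, 0.805% lower and 2.02% higher in PolyI:C mice, which is 186 lower and 467 higher probe sets, against 285 lower and 239 higher after quantile normalization and 232 lower and 298 higher after median centring. A single call among 9 genes is read here as a result about Adamts4 and not about the set. The median log2 difference of the 9 was -0.019, beside 0.0030 for all probe sets tested. The groups overlapped for each of the 9 genes, whereas they did not overlap for 2.37% of all probe sets. At an unadjusted p under 0.05 there were 2 of 9, Adamts4 and Hapln4, beside 19.1% of all probe sets.

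**Figure D1:**
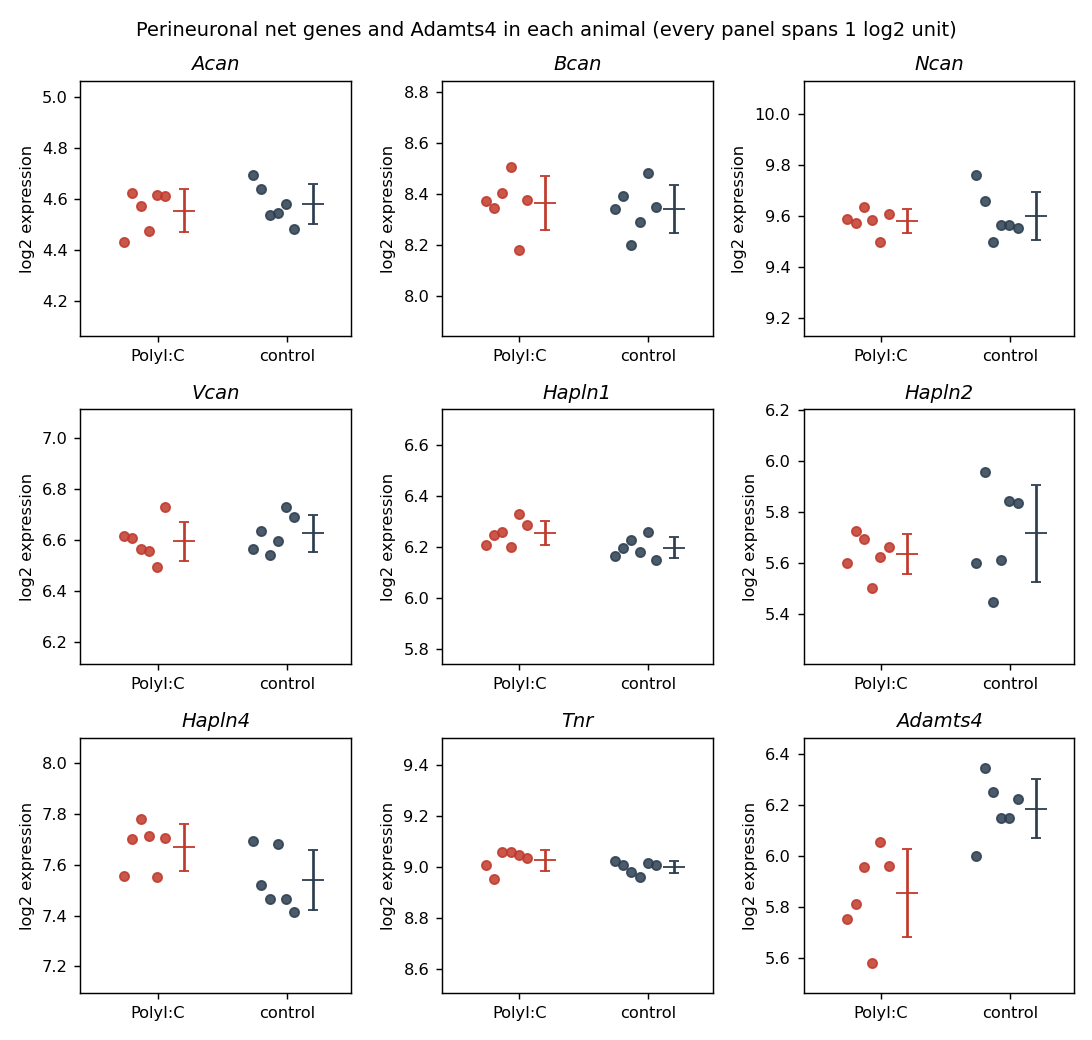
Log2 expression of the 9 genes in each animal, 6 PolyI:C mice (red, left) and 6 control mice (dark, right) per panel, with the group mean and SD beside the points; every panel spans the same range of log2 values. Adamts4 is the gene whose points separate most, with 5 of 6 PolyI:C mice below all control mice. For Hapln4 and for Tnr 4 of 6 PolyI:C mice lie above all control mice, and the groups overlap in every panel.

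Among the lecticans, Acan encodes aggrecan, the proteoglycan that nets depend on. Its lowest, median and highest log2 levels were 4.43, 4.59 and 4.62 in PolyI:C mice and 4.48, 4.56 and 4.70 in control mice. The groups covered nearly the same range, and the difference was -0.025 ± 0.044 (log2, SE; limma adjusted p = 0.80). Bcan encodes brevican, an abundant lectican of adult brain, made largely by astrocytes and oligodendrocyte precursors and a substrate of ADAMTS4. Its lowest, median and highest levels were 8.18, 8.38 and 8.50 in PolyI:C mice and 8.20, 8.34 and 8.48 in control mice. These ranges were almost identical, with a difference of 0.022 ± 0.051 (adjusted p = 0.85).

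Ncan encodes neurocan, a lectican best known from the developing brain. Its levels were 9.50, 9.59 and 9.63 in PolyI:C mice and 9.50, 9.57 and 9.76 in control mice (lowest, median and highest log2). Control 1 lay above all other animals, and the difference was -0.019 ± 0.041 (adjusted p = 0.85). Vcan encodes versican, made by oligodendrocyte precursors and, as a short isoform, found at nodes of Ranvier. Its levels were 6.50, 6.58 and 6.73 in PolyI:C mice and 6.54, 6.62 and 6.73 in control mice, and the probe set does not separate the isoforms here. Neither group stood apart for Vcan either, with a difference of -0.032 ± 0.042 (adjusted p = 0.72).

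The 3 link proteins differed in direction, and none passed. Hapln4, the brain link protein that accompanies brevican in nets, had levels of 7.55, 7.70 and 7.78 in PolyI:C mice and 7.41, 7.49 and 7.69 in control mice (lowest, median and highest log2). All 6 PolyI:C mice lay above the control mean and 4 of 6 lay above every control mouse, but controls 1 and 4 fell within the range of the PolyI:C mice. The difference was 0.13 ± 0.05 (SE; limma adjusted p = 0.20), with a 95% interval from 0.014 to 0.24 that is not adjusted for the number of genes. After quantile normalization the difference was 0.093 and without controls 5 and 6 together 0.078 (adjusted p = 0.40 and 0.48).

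Hapln1 encodes the link protein that neurons make as nets assemble. It ranged from 6.20 to 6.33 in PolyI:C mice, with a median of 6.25, and from 6.15 to 6.26 in control mice, with a median of 6.19. All 6 PolyI:C mice lay above the control mean and 2 of 6 lay above every control mouse, and the difference was 0.059 ± 0.032 (adjusted p = 0.33). Hapln2 encodes the link protein of nodes of Ranvier and, like Adamts4, is known from oligodendrocytes. It ranged from 5.50 to 5.73 in PolyI:C mice, with a median of 5.64, and from 5.45 to 5.96 in control mice, with a median of 5.72. The control mice were the more variable group, with an SD of 0.19 beside 0.079 in PolyI:C mice, and both the lowest and the highest level belonged to control mice. The difference of Hapln2 was -0.082 ± 0.070 (adjusted p = 0.56). It was -0.034 without control 2, -0.13 without control 3 and -0.020 without controls 5 and 6 together.

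Tnr encodes tenascin-R, the protein that cross-links lecticans, and had the smallest animal-to-animal spread of the 9 genes. Its levels were 8.95, 9.04 and 9.06 in PolyI:C mice and 8.96, 9.01 and 9.02 in control mice (lowest, median and highest log2). Although 4 of 6 PolyI:C mice lay above every control mouse, PolyI:C 2 was the lowest animal of all, and the difference was 0.028 ± 0.029 (adjusted p = 0.63).

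A p-value above the threshold does not show that the groups were alike, so the intervals matter for the 8 structural genes. The 95% intervals of their log2 differences reached down to -0.23, for Hapln2, and up to 0.24, for Hapln4. For Acan the interval ran from -0.12 to 0.067, which corresponds to a change between -7.79% and 4.77%. For Bcan it ran from -0.086 to 0.13, or from -5.78% to 9.49%, and for Ncan from -0.11 to 0.069, or from -7.10% to 4.87%. Vcan had an interval from -0.12 to 0.057 and Tnr one from -0.033 to 0.089. None of the 8 intervals reached the difference estimated for Adamts4. The interval of Adamts4 itself ran from -0.48 to -0.18 and overlapped that of Hapln2. Whether the 8 genes differ from Adamts4 was not tested.

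**Figure D2:**
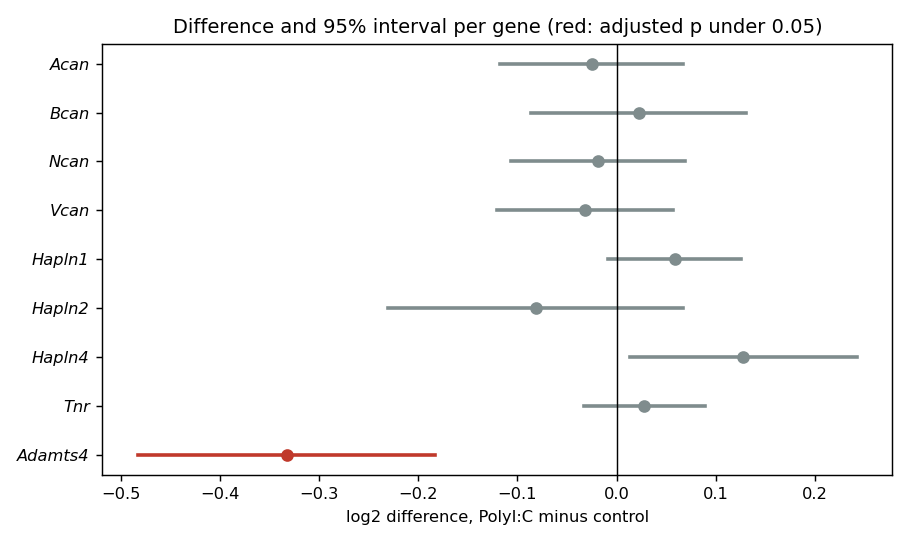
Log2 difference of each of the 9 genes, PolyI:C minus control (points), with its 95% interval from the limma fit (lines), for 6 mice against 6; red marks an adjusted p under 0.05. The estimate of Adamts4 lies at -0.33 and its interval overlaps that of Hapln2. The intervals of all but Adamts4 and Hapln4 include 0.

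Adamts4, the lectican-cleaving protease, was the only gene of the 9 that passed the test. Its log2 levels were 5.75, 5.81, 5.96, 5.58, 6.05 and 5.96 in PolyI:C mice 1 to 6, against 6.00, 6.34, 6.25, 6.15, 6.15 and 6.22 in control mice 1 to 6. All 6 PolyI:C mice lay below the control mean and 5 of 6 lay below every control mouse; the exception was PolyI:C 5, which exceeded control 1 alone. The means were 5.85 ± 0.17 in PolyI:C mice and 6.18 ± 0.12 in control mice (log2, SD, n = 6 each), and Adamts4 fell by 0.33 ± 0.07 on the log2 scale (SE; limma adjusted p = 0.022). This is a change of -20.6%, with a 95% interval from -28.4% to -11.9%. The gene ranked 234 by p among the 23099 probe sets. The call was lost without control 2 (adjusted p = 0.0584), control 3 (0.0526) or PolyI:C 1 (0.0553), while the difference stayed between -0.37 and -0.28 over the 12 fits that left out 1 animal. It was also lost with probe sets of no gene added to the fit (0.0551) and without variance moderation (0.0943), a setting under which no gene of the 9, of the matrix lists or of the marker lists passed.

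Markers of oligodendrocytes moved with Adamts4. All 18 measured markers, a list that does not include Adamts4 or Hapln2, had a lower mean in PolyI:C mice, and 8 of 18 fell past the adjusted threshold, with a median log2 difference of -0.31. Of all probe sets, 52% had a higher mean in PolyI:C mice and 0.805% passed as lower. Mobp, a structural protein of myelin, had means of 8.20 ± 0.24 in PolyI:C mice and 8.70 ± 0.14 in control mice (log2, SD, n = 6 each; limma adjusted p = 0.012). Cldn11, the tight-junction protein of the myelin sheath, had means of 7.91 ± 0.21 in PolyI:C mice and 8.35 ± 0.10 in control mice (adjusted p = 0.011). Cnp, a phosphodiesterase of oligodendrocytes, and Myrf, the transcription factor that switches on myelin genes, fell by 0.34 ± 0.07 and 0.30 ± 0.06 (log2, SE; adjusted p = 0.023 and 0.024). Earlier results for myelin genes in these samples were known when the list was made, so its direction is not independent evidence. With the replicate number as a block, 13 of the 18 passed. Of the 18, 2 passed without control 2 or PolyI:C 1, 3 without control 3 or PolyI:C 4, and 5 without control 6 or without controls 5 and 6 together.

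The mean of the 18 markers ranged from 6.91 to 7.37 in PolyI:C mice and from 7.29 to 7.65 in control mice, and their summed signal from 11.4 to 11.9 in PolyI:C mice and from 11.8 to 12.2 in control mice (log2). The dimmest of the 18 was Gjb1, with a mean of 4.93, below the array medians. Whether the level of Adamts4 per oligodendrocyte changed was not tested, and in bulk tissue fewer cells of a type and less RNA per cell cannot be told apart.

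Adamts4 also followed the oligodendrocyte markers from animal to animal within the groups. After the group means were removed, Adamts4 and the mean of the 18 markers correlated at Pearson r = 0.94 and Spearman rho = 0.94 over 12 animals (permutation within groups, two-sided p = 0.00033 and 0.00054, adjusted over the 9 genes 0.00297 and 0.00486). The correlation was 0.96 among PolyI:C mice and 0.88 among control mice, and 0.86 without PolyI:C 4 and control 1. Those animals had the marker means farthest from the median once the group means were removed. PolyI:C 4 was the lowest animal for Adamts4 at 5.58 and for the marker mean at 6.91, and control 2 was the highest for both at 6.34 and 7.65. All values come from the same arrays, so deviations that an array gives to many probe sets are shared.

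Of the 8 structural genes, 0 passed after adjustment in the same comparison. Hapln1 gave r = 0.64 and rho = 0.70 (permutation p = 0.040 and 0.034, adjusted 0.12 and 0.14), a relation that was 0.90 among PolyI:C mice and 0.20 among control mice. Hapln2 gave r = 0.52 and rho = 0.52 (permutation p = 0.041 and 0.047, adjusted 0.12 and 0.14), with 0.50 among PolyI:C mice and 0.71 among control mice. Without PolyI:C 4 and control 1 the Pearson values were 0.50 for Hapln1 and 0.34 for Hapln2. For the 4 lecticans, Hapln4 and Tnr, r lay between -0.33 and 0.30 over all 12 animals. Without the same pair of animals it was 0.76 for Tnr, beside 0.15 with them, and 0.50 for Acan, beside 0.24 with them, and it lay between -0.040 and 0.18 for Bcan, Ncan, Vcan and Hapln4. Whether these correlations differ from that of Adamts4 was not tested.

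**Figure D3:**
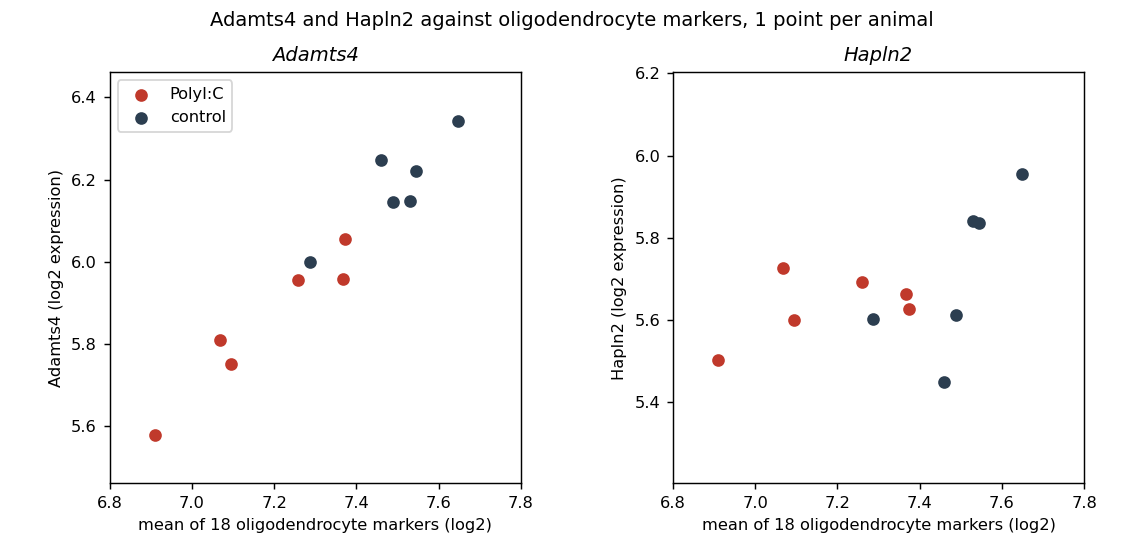
Log2 expression of Adamts4 (left) and Hapln2 (right) against the mean log2 level of 18 oligodendrocyte markers, 1 point per animal, 6 PolyI:C mice in red and 6 control mice dark. Adamts4 rises with the markers in both groups (r = 0.96 in PolyI:C mice and 0.88 in control mice), whereas the points of Hapln2 scatter more widely.

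By the same measure, the Pearson correlation of deviations from group means over the 12 animals, the probe set most like Adamts4 among 21217 others of a single gene was that of Cnp, at r = 0.95. Tead3, a transcription factor of the TEA domain family, followed at 0.95 and Hmx2, a homeobox gene, at 0.92. Cnp was lower in PolyI:C mice, as given above, while Tead3 differed by -0.052 ± 0.039 and Hmx2 by 0.020 ± 0.046 (log2, SE; limma adjusted p = 0.49 and 0.86). Hmx2 was dim, with a mean of 4.87. These genes were picked as the highest of many correlations, and their values are a description.

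The 9 genes were also compared with each other in the same way. Of the 36 pairs, 0 passed after adjustment and 2 had an unadjusted permutation p under 0.05. Hapln1 and Adamts4 correlated at r = 0.65 and rho = 0.76 (permutation p = 0.038 and 0.014, adjusted over 36 pairs 0.66 and 0.51), with r = 0.92 among PolyI:C mice and 0.17 among control mice. The neighbouring genes Ncan and Hapln4 correlated at r = 0.64 and rho = 0.56 (permutation p = 0.040 and 0.088, adjusted 0.66 and 0.71), with 0.74 among PolyI:C mice and 0.61 among control mice. Leaving out the 2 animals farthest from the median, again once group means were removed, gave 0.71 for Hapln1 and Adamts4 and 0.44 for Ncan and Hapln4. Adamts4 correlated with Bcan, which encodes a substrate, at r = -0.50 and rho = -0.15 (permutation p = 0.12 and 0.66, adjusted 0.66 and 0.80). For this pair r was -0.77 among PolyI:C mice and -0.068 among control mice, and -0.24 without the 2 farthest animals.

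The other genes of net assembly and turnover were taken from 6 lists with 85 measured genes. In limma 1 of the 85 rose and 0 fell, where 2.02% of all probe sets passed as higher and 0.805% as lower. At an unadjusted p under 0.05 there were 15 of 85, beside 19.1% of all probe sets. The gene that rose was Sema3a, a secreted guidance protein that binds to the chondroitin sulphate chains of nets. Its log2 levels were 6.83, 6.95 and 7.08 in PolyI:C mice and 6.61, 6.75 and 6.83 in control mice (lowest, median and highest). Only PolyI:C 2 lay within the range of the control mice, below control 5, and the difference was 0.22 ± 0.05 (SE; adjusted p = 0.030). The call depended on single animals: 7 of the 12 fits that left out 1 animal lost it (control 1, 2 or 3 and PolyI:C 1, 3, 4 or 5), with adjusted p from 0.0503 to 0.0702, and it was also lost after median centring (0.0524).

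Apart from Sema3a, 20 of 21 other matrix and net components did not pass, and the list had a median log2 difference of 0.0092. None of 19 matrix proteases passed in limma, and 6 had an unadjusted p under 0.05, beside 19.1% of all probe sets. Within them the 8 other members of the Adamts family differed by between -0.18 and 0.092, with 3 lower and 5 higher means, and 2 at an unadjusted p under 0.05. Mmp14, a membrane-bound metalloprotease that cuts collagen and activates other proteases, differed by -0.13 ± 0.05 (adjusted p = 0.12). Mmp16, of the same membrane-bound class, differed by 0.084 ± 0.031 (limma adjusted p = 0.14). Its groups did not overlap, as for 2.37% of all probe sets, but the lowest PolyI:C level, 7.5794, barely exceeded the highest control level, 7.5781.

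Of 10 protease inhibitors and activators 0 passed in limma and 3 had an unadjusted p under 0.05. Pcsk6, a convertase that activates secreted proteins by cutting off their propeptides, differed by -0.15 ± 0.05 and Timp1, an inhibitor of metalloproteases, by 0.074 ± 0.030 (adjusted p = 0.095 and 0.18). In hyaluronan turnover 0 of 6 passed, with 1 at an unadjusted p under 0.05; Cemip, which takes part in hyaluronan breakdown, differed by 0.084 ± 0.039, and Hyal3, a hyaluronidase family member, by 0.085 ± 0.042 (adjusted p = 0.24 and 0.28).

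Synthesis of chondroitin sulphate showed 0 of 20 genes past the threshold and 1 at an unadjusted p under 0.05, with a median of -0.021 and a range from -0.18 to 0.096. Chst3, a sulphotransferase that helps set the sulphation pattern of the chains, differed by -0.12 ± 0.04 (adjusted p = 0.13). Ust, a sulphotransferase of uronic acid residues, differed by -0.18 ± 0.09 (adjusted p = 0.26), and by -0.11 without control 5 and -0.092 without controls 5 and 6 together. Among 9 receptors for chondroitin sulphate proteoglycans 0 passed and 1 had an unadjusted p under 0.05, although all 9 had a higher mean in PolyI:C mice (52% of all probe sets did), with a median of 0.029. Ptprd and Ptprs, receptor-type phosphatases of the same subfamily, differed by 0.12 ± 0.03 and 0.052 ± 0.032 (adjusted p = 0.065 and 0.40).

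**Figure D4:**
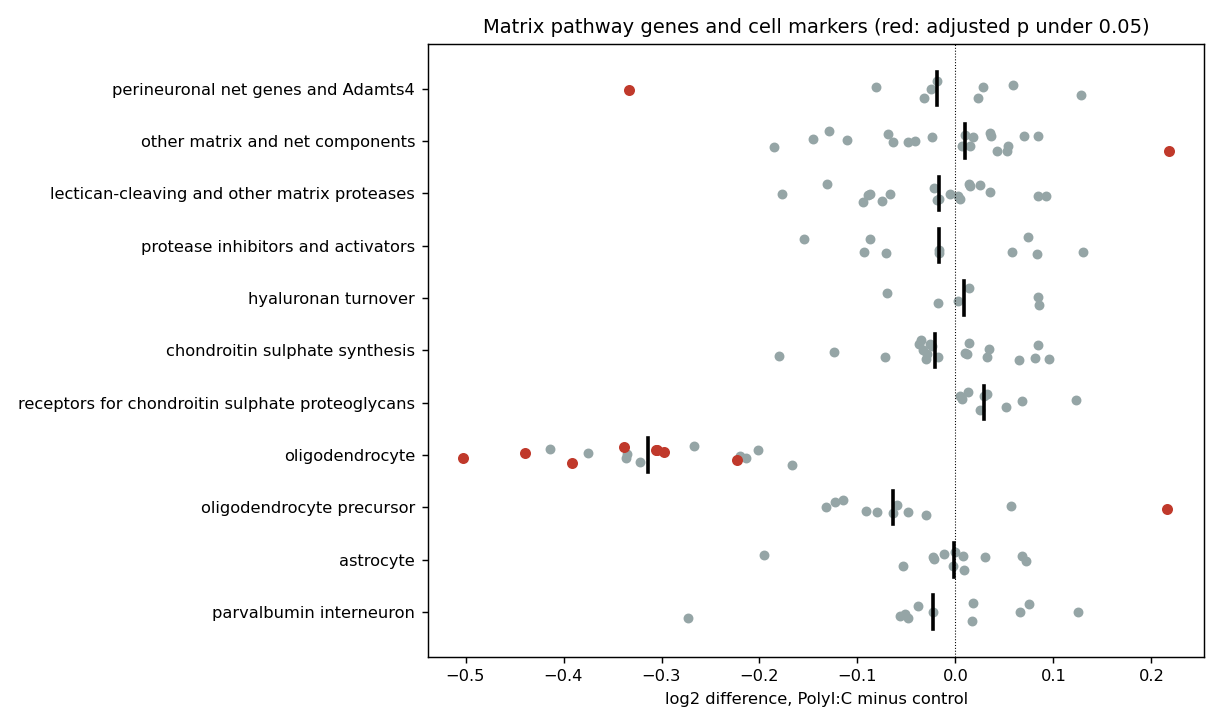
Log2 difference, PolyI:C minus control, of every measured gene in the set of 9, in 6 lists of matrix genes and in 4 lists of cell markers; each point is a gene, black bars are list medians and red marks an adjusted p under 0.05. The oligodendrocyte markers are all below 0 with a median of -0.31, where Adamts4 also lies. The receptor list lies wholly above 0 and the other matrix lists spread to both sides of 0. Among the genes of the matrix lists, Sema3a alone is red.

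The cells that make or carry nets were followed by their own markers. Of 11 markers of parvalbumin interneurons 0 passed in limma and 1 had an unadjusted p under 0.05. It was Kcnc2, a potassium channel of fast-spiking cells, at 0.13 ± 0.04 (limma adjusted p = 0.11). The list median was -0.023 and 6 of 11 means were lower, among them Tac1 at -0.27, named after its values were seen. Of 12 astrocyte markers 0 passed and 0 had an unadjusted p under 0.05, with a median of -0.0016; S100b, a calcium-binding protein, was at 0.072 ± 0.043. Of 11 markers of oligodendrocyte precursors, cells that make Vcan and Bcan, 1 rose and 10 did not pass. Of all probe sets, 2.02% passed as higher. At an unadjusted p under 0.05 there were 4 of 11, beside 19.1% of all probe sets. Pcdh15, a cadherin of these cells, had means of 6.52 ± 0.11 in PolyI:C mice and 6.31 ± 0.05 in control mice (log2, SD, n = 6 each; adjusted p = 0.022), although 9 of the 11 means were lower and the median was -0.064. The Pcdh15 call was lost without control 2, PolyI:C 1 or controls 5 and 6 together (adjusted p = 0.0582, 0.0502 and 0.0542).

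Markers of the striatum, which lies near the dissected cortex, were also lower in PolyI:C mice: 10 of 10 means were lower and 1 passed, Ppp1r1b, a dopamine-regulated phosphatase inhibitor (-0.27 ± 0.06, adjusted p = 0.028). At an unadjusted p under 0.05 there were 7 of 10, beside 19.1% of all probe sets, and the median log2 difference was -0.26. Of all probe sets, 52% had a higher mean in PolyI:C mice, and 0.805% passed as lower. The lowest was that of the dopamine receptor gene Drd2 at -0.54, named after its values were seen and not called. The call of Ppp1r1b was lost without control 2 or 6, without PolyI:C 1, 3 or 4, and without controls 5 and 6 together (limma adjusted p up to 0.0674). The mean of the striatal markers ranged from 6.19 to 6.34 in PolyI:C mice and from 6.25 to 6.88 in control mice, with controls 5 and 6 the highest at 6.88 and 6.73. Without these 2 animals Adamts4 differed by -0.33 (limma adjusted p = 0.0493). Ppp1r1b then differed by -0.18 (limma adjusted p = 0.0538), less than the -0.27 with all 12 animals. The striatal marker means of controls 1 to 4 were 6.25, 6.48, 6.39 and 6.28. Whether the fall of Adamts4 is related to the striatal difference was not tested. Of the remaining lists 0 of 8 microglial, 0 of 7 endothelial, 0 of 8 pericyte and meningeal and 0 of 7 excitatory neuron markers passed in limma, with 0, 0, 3 and 1 at an unadjusted p under 0.05. Their lowest p-values belonged to Siglech (0.066 ± 0.032), Cldn5 (-0.098 ± 0.052), Lum (-0.15 ± 0.05) and Neurod6 (0.12 ± 0.04).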

How the data were processed

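RNA of 12 mice was measured on Affymetrix Mouse Gene 1.1 ST strips, per the labels' protocols, which mention a 3' IVT kit and a whole-transcript kit without settling which was used. The authors deposited 1 log2 expression value per probe set and array, judged by the scale. The submitters' processing notes name RMA and Partek 6.6, in roles that are not stated. RMA-type normalization makes array distributions alike and compresses differences of dim probe sets. Depth does not apply to arrays, and their number limits the precision. Build and annotation are not stated in the sources used here.

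Of 35556 probe sets, 21218 carried 1 gene symbol in the platform annotation, 1881 several and 12457 none; 21185 single symbols were matched by gene identifier to RefSeq. All 23099 with a gene entered 1 limma 3.58.1 fit (R 4.3.3; lmFit, then eBayes) of PolyI:C minus control, with no covariate and two-sided p-values. Correlations used deviations from group means and 100000 permutations within groups (Python 3.11.15, numpy 2.4.6, scipy 1.17.1). Both procedures were tested on simulated data.

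The genes and lists were chosen with earlier results of these data known. Named were the 9 genes, every called gene of a matrix list or else its 2 lowest p-values, up to 4 called markers per cell type or else the lowest p, and the 3 genes most like Adamts4. Samples with the same replicate number did not deviate together (6 pairs, correlation from -0.092 to 0.11), so the numbers were not taken as pairs. Alternatives were the replicate block, quantile normalization, median centring, array weights, brightness filters, all 35556 rows, other variance models, gene means over probe sets, and leaving out animals.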

Additional observations from a re-analysis of the deposited data

Results flagged for a closer look

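Across the 9 genes and 15 list means, each in both groups, 48 groups of 6 animals were screened for 1 animal far from the others, which chance finds in about 1 group in 20. One was found: the mean of the striatal markers was 6.34 (log2) in PolyI:C 5, whose gap to the next animal was 0.646 of the range of its group, above Dixon's 95% limit for a group of 6. The other 5 PolyI:C mice lay between 6.19 and 6.25. PolyI:C 5 also had the highest Adamts4 level of its group, 6.05, and the difference of Adamts4 without it was -0.37 (limma adjusted p = 0.0134). None of the 9 genes had such an animal in either group.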

How the results depend on the processing

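The difference of Adamts4 was below 0 under every alternative run, from -0.37 to -0.28 when 1 animal was left out. Its call was lost with all rows of the table in the fit (-0.33, limma adjusted p = 0.0551) and without variance moderation (-0.33, 0.0943), which left 0 of the 9 genes called, as did leaving out control 2, control 3 or PolyI:C 1 (0 to 1 calls); the cause was not tested. With the replicate number as a block, Adamts4 passed (adjusted p = 0.0186) and the count of cell markers that were lower was 17 instead of 9; the numbers do not pair the samples. Of the 9 genes, no structural one passed under any alternative. Differences near 0 changed sign: Bcan was -0.011 after quantile normalization and between -0.0056 and 0.059 with 1 animal left out, Vcan was 0.010 without controls 5 and 6 together, Acan lay between -0.045 and 9.87e-05 and Ncan between -0.039 and 0.013 with 1 animal left out, and the correlation of Tnr with the oligodendrocyte markers was -0.00074 after quantile normalization.

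The number of matrix genes that were higher, 1 as deposited, was 0 after median centring, with all rows or without moderation, 2 with probe sets at or above the median brightness or with trend and robust eBayes, and 0 to 2 with 1 animal left out; that of lower ones was 2 without controls 5 and 6 together and 0 to 2 with 1 animal left out. Cell markers that were lower numbered 2 with all rows, 0 without moderation, 5 without controls 5 and 6 together and 2 to 13 with 1 animal left out, and higher ones 0 without moderation, 0 without those controls and 0 to 2 with 1 animal left out. Over all probe sets, 186 lower and 467 higher as deposited, counts were 285 and 239 after quantile normalization, 298 higher after median centring, 118 and 296 with all rows, 28 and 94 without moderation, and 73 to 232 lower and 154 to 586 higher with 1 animal left out. Fewer animals were fitted in the latter. Acan and other dim probe sets are limited by signal over background.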
